A study of Sus scrofa with 24 samples.

Results

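The 56 genes described here encode subunits and assembly factors of the mitochondrial respiratory complexes I, II and III and of the ATP synthase, which is complex V. They were chosen by name: each gene whose symbol starts with NDUF, UQCR or ATP5, or is SDHA, SDHB, SDHC, SDHD or CYC1, was taken from the probe sets that the platform annotation ties to 1 symbol, and the brightest probe set stood for the gene. Of the 6765 genes measured in this way, 36 belonged to complex I, 4 to complex II, 2 to complex III and 14 to complex V. Complex III was represented by UQCRB and UQCR10 alone, and CYC1 and the other subunits of that complex were not analysed here. The complex I genes comprised 33 named as subunits and the 3 assembly factors NDUFAF1, NDUFAF2 and NDUFAF3. NDUFA4 was first described in complex I and later found in complex IV, and it is counted by its symbol.

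RNA came from 24 offspring of German Landrace gilts that received a gestational high protein diet, and every group shared this diet, so that no other diet was compared. The groups were fetuses at 94 days post conception (94 dpc) and pigs at 1, 28 and 188 days post natum (dpn), with 6 animals and 6 arrays in each stage. Each stage drew on 3 gilts, and mother, sex and array batch are not given in the labels. The p-values therefore treat the 6 animals of a stage as independent although some shared a mother. The sample labels name the tissue as liver, whereas the series title speaks of muscle. The comparisons ask how the levels of these transcripts differed between late gestation, the day after birth, 28 days and 188 days of age.

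In the inner mitochondrial membrane, complex I takes electrons from NADH and complex II takes them from succinate, and both pass them to ubiquinone. Complex III moves the electrons on to cytochrome c while protons are pumped across the membrane, and complex V uses the returning protons to make ATP. Complex I is built from an N module that binds NADH, a Q module that hands electrons to ubiquinone and a membrane arm, the P module, that pumps protons. All genes described here are nuclear, and their proteins are imported into the mitochondrion. Oxidative muscle fibres are rich in these complexes, and the liver depends on them as well.

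Signals are the scaled intensities that the authors deposited, 1 per probe set and array. Every member except NDUFV3 had a mean above the background level of 74.7 at every stage, where background is the 95th percentile of 17 control probe sets without a pig target. The summed signal of 8 skeletal muscle markers lay between 185550 and 263629 in the fetuses, between 315166 and 409562 in the newborns, between 441053 and 582615 in the pigs of 28 dpn and between 376517 and 519989 in those of 188 dpn, and none of the 8 was at 0 in any array. The summed signal of 10 liver markers lay between 7889 and 57042 in the fetuses, between 2808 and 29619 in the newborns and between 3101 and 7209.9 at 28 dpn. At 188 dpn it lay between 1318 and 2263 in animals 4 to 6 but reached 184899, 144885 and 29359 in animals 1 to 3. The muscle sums of animals 1 to 3 were 466105, 376517 and 497751, against 495682 to 519989 in animals 4 to 6. Those of animals 1 and 2 were the lowest of the stage. The muscle sum was thus above the liver sum in all 24 arrays, whereas liver is the labelled tissue. The control transcript EF1A gave far less signal from its 5′ than from its 3′ probes in animals 1, 2 and 3 of 1 dpn, at a ratio of 0.0963 to 0.135, against at least 0.670 in the other 3. The 94 dpc animal 5 had the lowest muscle sum of its stage (185550 against 234497 to 263629) and the highest sum of 4 leukocyte markers (1714 against 371 to 493). The array groups named here are set beside the results they touch.

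From 94 dpc to 1 dpn, genes of all 4 complexes rose together. The words at birth stand below for this whole step. No stage between 94 dpc and 1 dpn was sampled, so when within the step the levels rose is not known. Of the 56 genes, 50 rose, 0 fell and 6 did not pass the limma test at an adjusted p of 0.05, whereas 17.1% of all 6765 genes were called higher and 20.7% lower. At an unadjusted p under 0.05, 53 members were higher and 0 lower. The 6 animals of 1 dpn lay above all 6 fetuses in 42 members, and the stages did not overlap in 18.9% of all genes. The median log2 difference was 1.19 over the members and -0.06 over all genes. In bulk tissue, a change in the number of cells of a type and a change of RNA per cell cannot be told apart. Taken per array as the median over the 56 genes, the signal was 7297 [4480.3 to 7841] at 94 dpc, 17087 [14635 to 19668] at 1 dpn, 15733 [12985 to 16414] at 28 dpn and 10849 [8861 to 12073] at 188 dpn, where here and below the median of the 6 animals is followed in brackets by the lowest and the highest. The fetuses stood below every later array, and the arrays of 188 dpn stood below those of 1 dpn and 28 dpn.

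**Figure D1:**
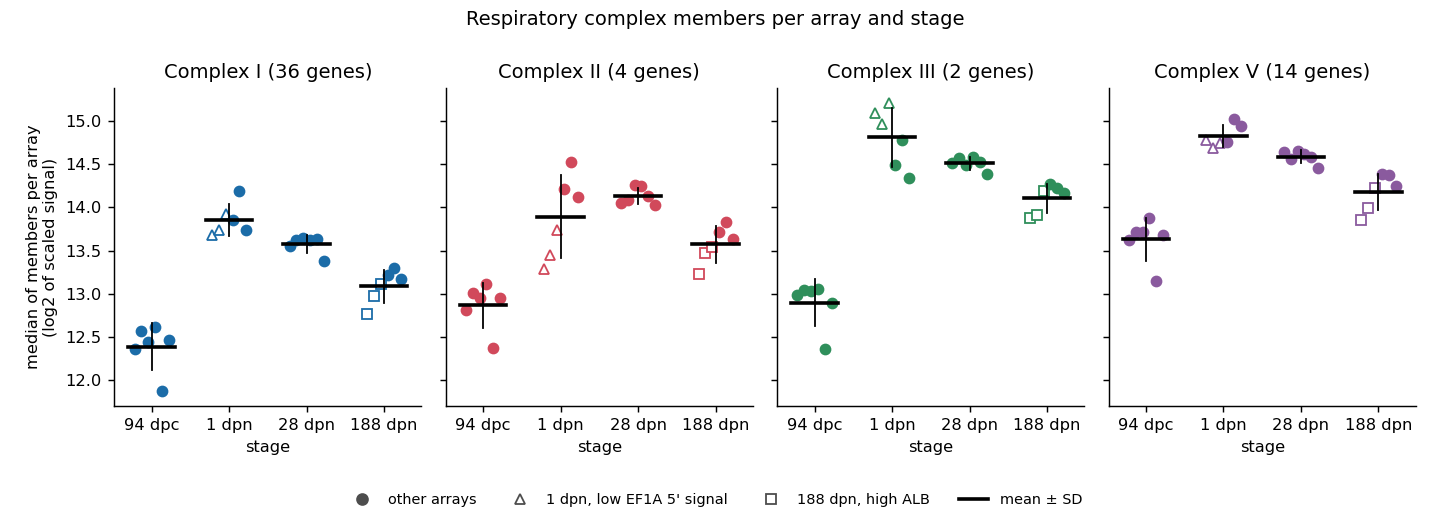
Median log2 signal of the members of each complex in each of the 24 arrays (y axis, log2 of scaled signal) by stage (x axis); the wide bar is the mean of 6 arrays and the thin bar its SD, open triangles are the 3 arrays of 1 dpn with low EF1A 5′ signal and open squares the 3 arrays of 188 dpn with high ALB. In complexes I, II and III the 6 fetuses lie below all other arrays, in complex V the highest fetus (15090.4 as a signal) lies just above the lowest array of 188 dpn (14809), and complex II has an SD of 0.48 at 1 dpn against 0.10 at 28 dpn.

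The rise at birth held for every measured subunit of the membrane arm of complex I. All 20 accessory subunits of the P module rose, with a median of 1.29 and a range from 0.77 for NDUFA10 to 2.44 for NDUFC1, and the stages did not overlap in 17 of them, although NDUFA11 lost its call with quantile normalization (0.39, adjusted p = 0.0898). NDUFC1, a small membrane subunit, had a signal of 2698 [1921 to 3009] in the fetuses and 16550.4 [8218 to 19102] at 1 dpn, a log2 difference of 2.44 ± 0.22 (± SE, n = 6 per stage, adjusted p = 3.52e-08). NDUFC2, another subunit of the membrane arm, went from 5087 [3812 to 5195] to 21544 [10887 to 28713] (2.03 ± 0.19, adjusted p = 5.24e-08). For both genes the lowest newborn lay above the highest fetus. NDUFB2 rose from 8548 [5709 to 9122] to 32013 [23747 to 39445] (1.96 ± 0.15, adjusted p = 8.59e-09) and NDUFB8 from 9239 [5995 to 10037] to 30211 [28320.3 to 32820.1] (1.80 ± 0.13, adjusted p = 3.42e-09). Both are accessory subunits of the distal membrane arm, and neither overlapped between the stages. NDUFAB1, the mitochondrial acyl carrier protein that is also a subunit of the complex, rose from 11741 [8744 to 13483] to 36346 [21436 to 44442] (1.50 ± 0.17, adjusted p = 6.80e-07). NDUFA4 rose from 17724 [12033 to 18967] to 38479 [33012 to 41825] (1.15 ± 0.13, adjusted p = 8.16e-07). For NDUFAB1 and NDUFA4 as well the stages did not overlap. NDUFA10 showed the smallest rise of the arm, from 3189 [1816 to 3681] to 4946 [3614 to 7654] (0.77 ± 0.20, adjusted p = 0.00554), and its stages overlapped.

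The redox parts of complex I also rose, with exceptions in the N module. Both Q module core subunits and all 3 N module core subunits that were measured passed. NDUFV1, which binds NADH and holds the flavin, stood at 3016 [1756 to 3268] in the fetuses and 7724 [6211 to 12590.4] at 1 dpn (1.56 ± 0.20, adjusted p = 5.27e-06). NDUFS3, of the Q module, stood at 4119 [2577 to 4702] and 12669 [7412 to 16758] (1.62 ± 0.20, adjusted p = 2.26e-06). In neither gene did the stages overlap. NDUFS7, whose iron-sulphur cluster gives electrons to ubiquinone, was at 7144 [3561 to 7832] and 13612 [7423 to 31046] (1.07 ± 0.29, adjusted p = 0.00753), with overlap. NDUFA9, a nucleotide-binding accessory subunit of the Q module, moved from 3908 [2360.2 to 4185] to 14139 [11979 to 19006] (2.04 ± 0.18, adjusted p = 2.61e-08) with no overlap. Of 5 N module accessory subunits, NDUFA2, NDUFA7 and NDUFA12 rose, by 1.57, 0.92 and 1.23. The other two did not pass: NDUFS6 had 2744 [1667 to 3440.3] and 3908 [1226 to 6365] (0.20 ± 0.36, adjusted p = 0.723), and NDUFV3 had 174 [86.3 to 254] and 96.7 [25.3 to 510.0] (-0.73 ± 0.51, adjusted p = 0.304). NDUFV3 was the only member whose difference at this step was below 0. NDUFS6 is described again with the arrays of low 5′ signal, where its 6 newborns fell apart into separate ranges.

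Of the 3 assembly factors 1 rose at birth. NDUFAF3, which takes part in building the Q module, rose by 0.82 ± 0.29 (adjusted p = 0.0373), from 1898 [1080.3 to 2242] to 3271 [1764 to 6581], with overlap, and it kept its call in 17 of 24 fits that each left out 1 animal. NDUFAF1, needed for early steps of the membrane arm, was at 167 [94.5 to 203] and 221 [158 to 361] (0.53 ± 0.21, adjusted p = 0.0537). NDUFAF2, a late chaperone related to NDUFA12, was at 214 [193 to 263] and 367 [169 to 457] (0.47 ± 0.22, adjusted p = 0.112). The difference between assembly factors and subunits was not tested.

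All 4 subunits of complex II and both measured subunits of complex III rose at birth. SDHA, the flavoprotein that oxidises succinate, had 7744 [4479 to 8175] in the fetuses and 23597 [20154 to 26657] at 1 dpn (1.74 ± 0.16, adjusted p = 7.63e-08). SDHB, its iron-sulphur partner, had 8676 [6298 to 10315] and 18853 [10381 to 30685] (1.09 ± 0.23, adjusted p = 0.000785). SDHC and SDHD, which anchor the enzyme in the membrane, rose by 1.52 ± 0.18 and 0.79 ± 0.18 (adjusted p = 1.21e-06 and 0.00176). With quantile normalization SDHD was not called (0.22, adjusted p = 0.313), so that 3 of 4 rose, and with all probe sets of a gene averaged 3 of 4 rose at a median of 0.80 against 1.31. The stages were apart in SDHA, SDHB and SDHC and overlapped in SDHD. In complex III, UQCRB, a small subunit at the ubiquinone site, went from 6732 [5269 to 7397] to 28732 [16849 to 34963] (1.99 ± 0.16, adjusted p = 1.15e-08). UQCR10, another small subunit of the membrane part, went from 9614 [5251 to 10927] to 30927 [25281 to 42349.8] (1.83 ± 0.18, adjusted p = 1.81e-07). Neither gene overlapped between the stages, and their median of 1.91 rests on these genes alone.

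Complex V rose in 12 of 14 genes, and none fell. In the catalytic head, F1, all 4 measured subunits rose without overlap, although ATP5E lost its call with quantile normalization (0.20, adjusted p = 0.142). ATP5B, the catalytic beta subunit, went from 20800.2 [13940.1 to 22905] to 54061 [46804 to 60503] (1.43 ± 0.14, adjusted p = 1.14e-07) and ATP5A1, the alpha subunit, from 21279 [15091 to 22989.7] to 44193 [33145 to 50978] (1.08 ± 0.17, adjusted p = 3.90e-05). The 4 subunits of the peripheral stalk, which keeps the head from turning, rose by 0.78 (ATP5O) to 1.27 (ATP5H), also without overlap, and with quantile normalization ATP5O was not called (0.08, adjusted p = 0.673). The complex then had 10 of 14 genes higher, at a median of 0.58 against 1.14 as deposited. ATP5I and ATP5L, membrane subunits that take part in dimer formation, passed at 2.19 ± 0.82 (adjusted p = 0.0464) and 1.33 ± 0.16 (adjusted p = 1.67e-06). The signal of ATP5I was 1135 [569.7 to 6324] in the fetuses and 9563 [849 to 22451] at 1 dpn, so that the stages overlapped, and the call was kept in 9 of 24 fits that each left out 1 animal. ATP5S, a coupling factor, was at 655 [568 to 759] and 826 [538 to 1439] (0.40 ± 0.18, adjusted p = 0.105).

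The rise at birth was smaller when all arrays were given 1 distribution. With quantile normalization 47 members rose and 0 fell, with a median of 0.79, and ATP5E, ATP5I, ATP5O, NDUFA11, NDUFS7 and SDHD lost their call. With each array centred on its median 53 rose and 0 fell, with a median of 1.52. The median of all probe sets moved with the scaling, from -0.15 as deposited to 0.03 and 0.17, so that the zero of a difference depends on it. Without the arrays of low 5′ signal 51 members rose and 0 fell, and without those of high ALB 49 rose and 0 fell. Relative to those medians the members stayed higher under each of these scalings, and 44 members were called higher under all 3. Skeletal muscle markers were called higher in 5 of 8, with a median of 0.63 as deposited and -0.04 with quantile normalization. The part of tissue makeup in the rise of the members was not tested.

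**Figure D2:**
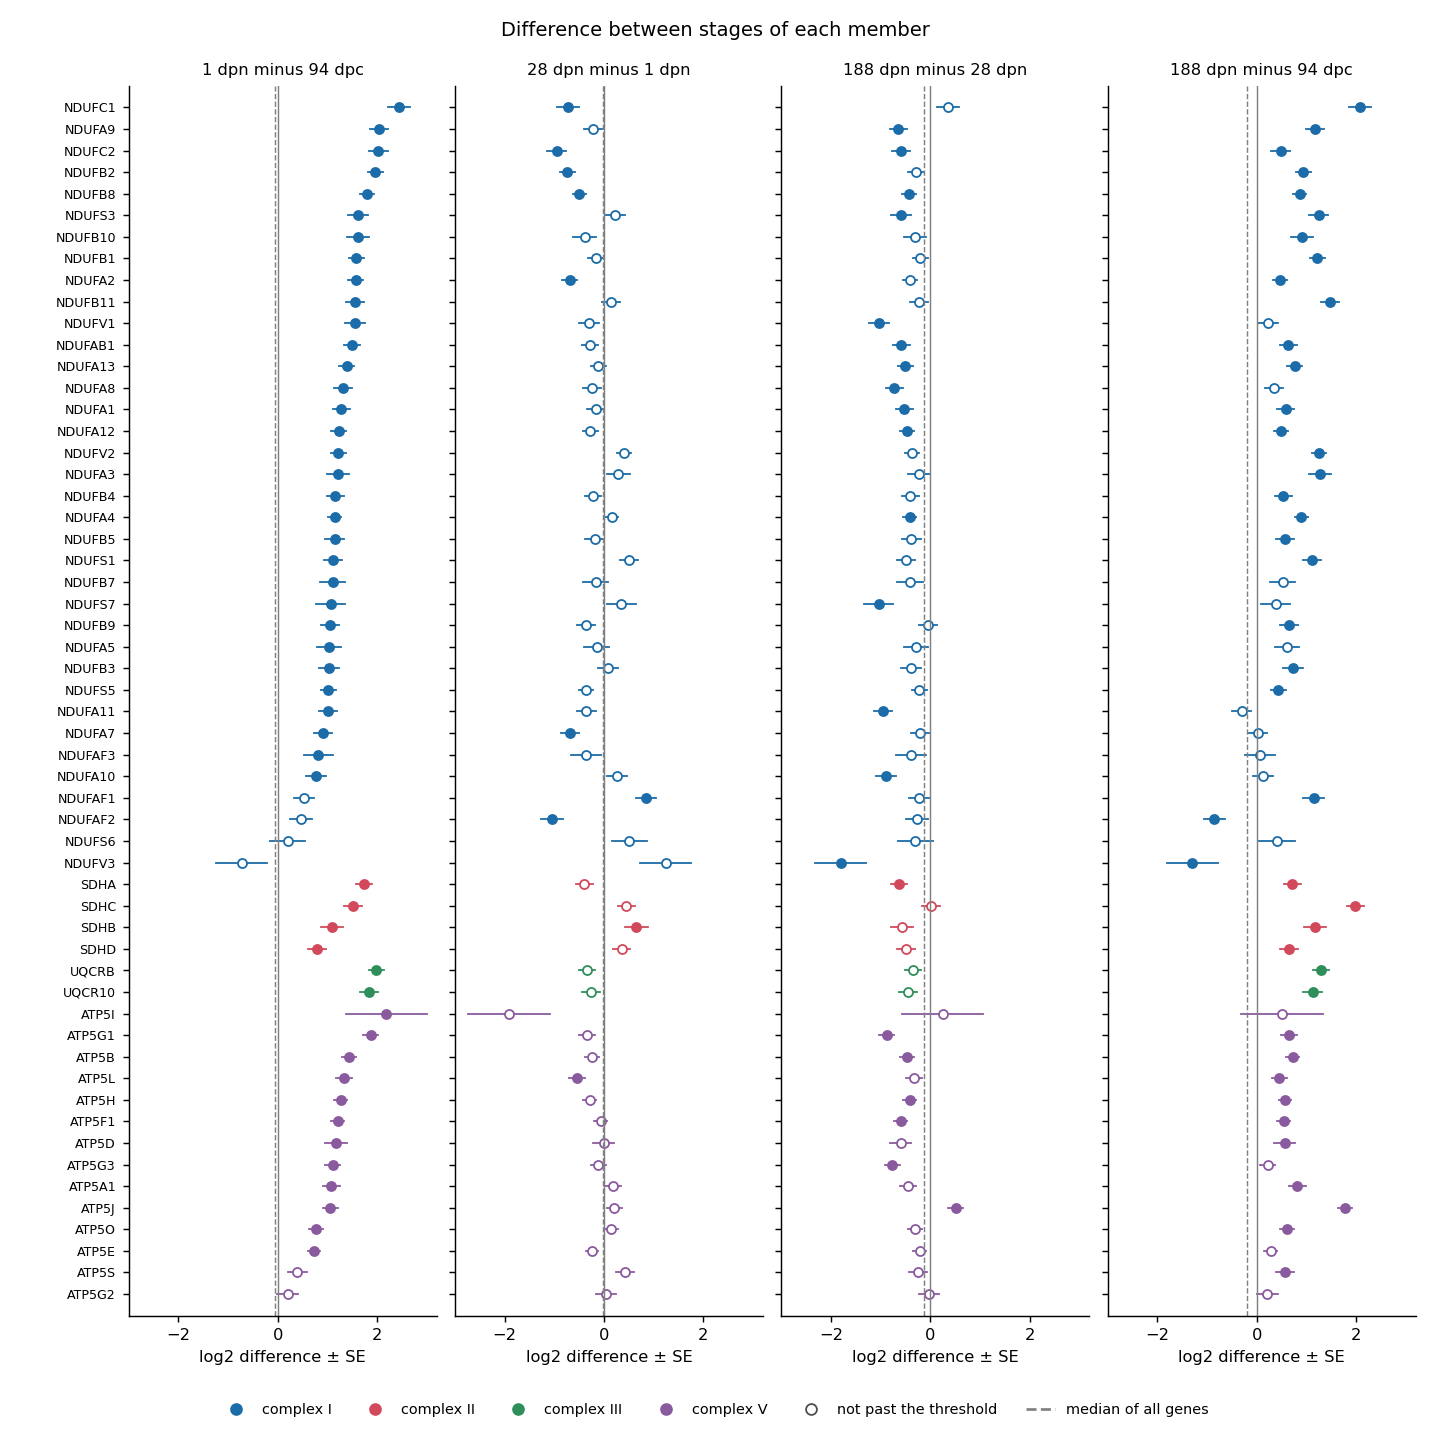
Log2 difference between stages (x axis, ± SE from limma, n = 6 per stage) of each of the 56 members (y axis, grouped by complex and ordered by the first comparison) in the 4 comparisons; filled points passed an adjusted p of 0.05, and the dashed line is the median of all genes. The first panel has 50 filled points, all above 0, and the third has 21 filled points below 0 and 1 above, ATP5J.

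The c subunit of complex V forms the rotating ring and is encoded by 3 genes, ATP5G1, ATP5G2 and ATP5G3, whose mature proteins are the same and whose import sequences differ. ATP5G1 was at 13486 [8232 to 14793] at 94 dpc, 48805 [37330.1 to 50795] at 1 dpn, 36864 [31816 to 39978] at 28 dpn and 21610.1 [14865 to 23152] at 188 dpn. It rose by 1.88 ± 0.15 at birth (adjusted p = 1.45e-08) and fell by 0.88 ± 0.15 from 28 dpn to 188 dpn (adjusted p = 0.000413), and neither pair of stages overlapped. ATP5G3 was at 24474 [15732 to 25994], 47625 [38558 to 62084], 45695 [38699 to 49309.5] and 26664 [21791 to 31414], with a rise of 1.11 ± 0.15 (adjusted p = 9.57e-06) and a later fall of 0.77 ± 0.15 (adjusted p = 0.00122) and no overlap at either step. ATP5G2 was at 11418 [6995 to 12944], 13077 [7628 to 19597], 12254 [11716 to 14328] and 12001 [11143 to 14763], and all 4 of its stages overlapped. Its differences between neighbouring stages were 0.20 ± 0.20, 0.04 ± 0.20 and -0.03 ± 0.20, and the F test over the 4 stages gave an adjusted p of 0.695. In the 3 newborns of low 5′ signal ATP5G2 was 7628 to 10191, against 15963 to 19597 in the other 3. Without those 3 arrays its difference at birth was 0.69 (adjusted p = 0.0063), so whether ATP5G2 passed at this step depended on them. Whether the 3 genes differed from each other in their change was not tested.

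**Figure D3:**
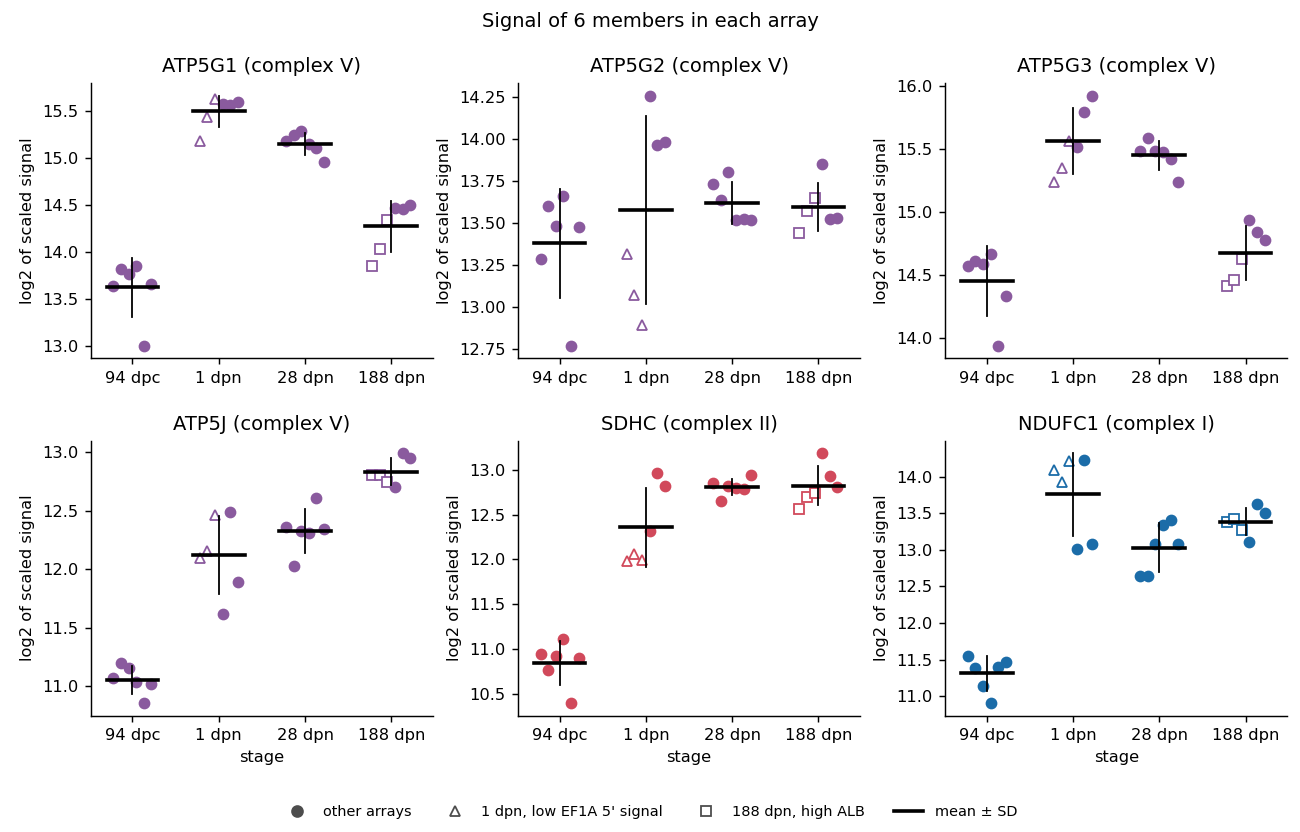
Log2 signal in each array (y axis) by stage (x axis) for the c subunit genes ATP5G1, ATP5G2 and ATP5G3 and for ATP5J, SDHC and NDUFC1; bars give the mean and SD of 6 arrays, and open symbols mark the arrays of low EF1A 5′ signal and of high ALB. ATP5G2 at 1 dpn falls into 3 open triangles below and 3 filled points above, and ATP5J is highest at 188 dpn.

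Between 1 dpn and 28 dpn few members changed, and mostly downward. The limma test called 2 of 56 higher and 8 lower, against 13.3% and 13.4% of all genes, so that the share of lower members was near that of all genes. The stages did not overlap in 6 members, against 12.9% of all genes. The members' median was -0.18 and that of all genes -0.02. With quantile normalization 4 were higher and 8 lower, and with centred arrays 1 and 8. The 8 genes that fell as deposited fell under all 3 scalings. Without the 3 arrays of low 5′ signal 2 members were higher and 9 lower, although 4 of the 10 calls were lost, and without the arrays of high ALB 1 was higher and 7 were lower.

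By complex 7 of 36 genes of complex I, 0 of 4 of complex II, 0 of 2 of complex III and 1 of 14 of complex V fell. Of the 8 that fell, 6 were subunits of complex I, and 4 of these belong to the membrane arm. Most measured subunits of complex I belong to that arm. NDUFC2 went from 21544 [10887 to 28713] at 1 dpn to 10159 [8783 to 12899] at 28 dpn, a fall of 0.96 ± 0.19 (adjusted p = 0.000821). NDUFB2 went from 32013 [23747 to 39445] to 19015 [16353 to 20452], a fall of 0.74 ± 0.15 (adjusted p = 0.00159). NDUFC1 went from 16550.4 [8218 to 19102] to 8653 [6375 to 10893] (-0.72 ± 0.22, adjusted p = 0.02). The ranges were apart for NDUFB2 and overlapped for NDUFC2 and NDUFC1. NDUFB8 fell by 0.50 ± 0.13, and the N module subunits NDUFA2 and NDUFA7 fell by 0.69 ± 0.15 and 0.69 ± 0.18 (adjusted p = 0.00981, 0.00203 and 0.00831). In complex V only ATP5L fell, from 33604 [27715 to 42568] to 23022 [21461 to 26056] (-0.55 ± 0.16, adjusted p = 0.0159), with no overlap. The assembly factors NDUFAF2 and NDUFAF1 moved in opposite directions. NDUFAF2 fell from 367 [169 to 457] to 146 [118 to 188] (-1.04 ± 0.22, adjusted p = 0.00152), and NDUFAF1 rose from 221 [158 to 361] to 416 [358 to 499.7] (0.84 ± 0.21, adjusted p = 0.0051). For both the ranges overlapped.

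Complex II was the only complex with a median above 0 from 1 dpn to 28 dpn, at 0.40 over 4 genes, and 1 of these passed. Without the newborns of low 5′ signal this median was 0.03, and none of the 4 passed. SDHB was at 18853 [10381 to 30685] at 1 dpn and 28639 [26632 to 29640.4] at 28 dpn (0.65 ± 0.23, adjusted p = 0.0451), with overlap. The call was kept in 8 of 24 fits that each left out 1 animal, and in the fit that dropped the newborns of low 5′ signal the difference was 0.09 (adjusted p = 0.813). SDHC and SDHD were at 0.45 ± 0.18 (adjusted p = 0.0726) and 0.35 ± 0.18 (adjusted p = 0.178), and SDHA was at -0.39 ± 0.16 (adjusted p = 0.0939). In complex III neither gene passed, at -0.34 ± 0.16 for UQCRB and -0.26 ± 0.18 for UQCR10 (adjusted p = 0.145 and 0.353).

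From 28 dpn to 188 dpn the members fell in part. Of the 56 genes 21 fell and 1 rose, against 14.3% and 6.16% of all genes, and the stages did not overlap in 26, against 18.4% of all genes. The median was -0.41 over the members and -0.12 over all genes. By complex 15 of 36 genes of complex I, 1 of 4 of complex II, 0 of 2 of complex III and 5 of 14 of complex V fell. At an unadjusted p under 0.05, 19, 3, 2 and 8 genes of these complexes were lower. With quantile normalization 22 members fell and 0 rose, and with centred arrays 4 fell and 1 rose, at a median of -0.15. The genes that fell under all 3 scalings were ATP5G1, ATP5G3, NDUFA11 and NDUFV1.

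The 5 largest falls past the threshold at this step were in complex I. NDUFV3, the N module accessory subunit, went from 222 [212 to 238] to 76.3 [26 to 79.7], an adjusted p of 0.0182. Its mean of 63.5 at 188 dpn lay under background, with 3 of 6 arrays under it, so the fall is given as at least 2.89-fold from 222. NDUFS7 fell from 17753 [14784 to 19469.5] to 9301 [5244 to 12194] (-1.04 ± 0.29, adjusted p = 0.0187) and NDUFV1 from 6644 [5524 to 7649.6] to 3389 [2193 to 4851] (-1.03 ± 0.20, adjusted p = 0.00124). In these genes every animal of 188 dpn lay below every animal of 28 dpn. NDUFA11, an accessory subunit of the membrane arm, fell from 15833 [12486 to 19632] to 8064 [6719 to 10030.2] (-0.96 ± 0.19, adjusted p = 0.00112). NDUFA10, also of the membrane arm, fell from 6099.6 [5784 to 6591] to 3526 [2211 to 3967] (-0.90 ± 0.20, adjusted p = 0.00375). The stages were apart in both. The other falls of complex I were 10 genes at -0.72 (NDUFA8) to -0.42 (NDUFA4). SDHA fell from 17621 [15451 to 20427] to 11574 [8593 to 14589.6] (-0.63 ± 0.16, adjusted p = 0.0106), with no overlap. In complex V, ATP5F1 of the peripheral stalk fell from 25438 [21289 to 26427] to 16004 [14753 to 18704] (-0.60 ± 0.13, adjusted p = 0.00324), and ATP5B and ATP5H fell by 0.47 ± 0.14 and 0.41 ± 0.13 (adjusted p = 0.0245 and 0.034).

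ATP5J was the 1 member that rose from 28 dpn to 188 dpn. This gene encodes coupling factor 6 of the peripheral stalk, and its signals were 2129 [1855 to 2354] at 94 dpc, 4476 [3145 to 5744] at 1 dpn, 5159 [4168 to 6264] at 28 dpn and 7174 [6674 to 8157] at 188 dpn. The arrays of 188 dpn lay above all arrays of every earlier stage. The difference between 188 dpn and 28 dpn was 0.51 ± 0.14 (adjusted p = 0.0202) and between 188 dpn and 94 dpc 1.78 ± 0.14 (adjusted p = 1.82e-09). The later rise lost its call with quantile normalization (0.36, adjusted p = 0.111) and without the arrays of high ALB (0.56, adjusted p = 0.0692), and when 28 dpn animal 2 was left out. SDHC did not pass between 28 dpn and 188 dpn, at 7178 [6452 to 7853] and 7025 [6061 to 9332] (0.01 ± 0.18, adjusted p = 0.974), and these ranges overlapped. By the mean of log2 signals, SDHC was also highest at 188 dpn (geometric means of 7247 and 7172.5), although its median was not. The other 54 members had their highest mean of log2 signals at 1 dpn (36 genes) or 28 dpn (18 genes).

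The count of members that fell from 28 dpn to 188 dpn was smaller without the arrays of high ALB. The 3 arrays concerned were animals 1, 2 and 3 of 188 dpn, and animal 3 of 1 dpn passed the same limit of 10 times the median ALB signal. At 188 dpn 23 members were lower in all 3 of these animals than in the other 3 and 0 were higher, against 9.56% and 7.57% of all genes. The median difference was -0.26 over the members and -0.04 over all genes. SDHA was 8593 to 10735 in animals 1 to 3 and 12414 to 14589.6 in animals 4 to 6, and NDUFS7 was 5244 to 8712 against 9891 to 12194. Without the 4 arrays 3 members fell and 0 rose from 28 dpn to 188 dpn, and the median was -0.31. The 3 genes were NDUFA11, NDUFV3 and ATP5G1, and this fit held 20 of the 24 arrays. Among the falls that lost their call, only NDUFA12 did not move toward 0 (-0.47 with all arrays and -0.50 without the 4). All the others moved toward 0, from a small shift in ATP5F1 (-0.60 and -0.53) to larger ones in SDHA (-0.63 and -0.38) and NDUFS7 (-1.04 and -0.69). With 1 animal of 28 dpn left out at a time, none of high ALB, 12 to 19 members fell, at medians of -0.45 to -0.39. The part that the loss of arrays itself had in these counts was not tested. Without the arrays of low 5′ signal 26 members fell and 1 rose at this step. The 10 liver markers had sums of 184899, 144885 and 29359 in animals 1, 2 and 3 of 188 dpn and 29619 in animal 3 of 1 dpn. The part of these markers in the lower member signals was not tested.

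Between fetuses and 188 dpn, the whole span of the series, 40 members were higher and 2 lower at 188 dpn, against 19.9% and 30.2% of all genes. The stages did not overlap in 37 members, against 38.9% of all genes. The members' median was 0.61 and that of all genes -0.19. By complex 24 of 36 genes of complex I, 4 of 4 of complex II, 2 of 2 of complex III and 10 of 14 of complex V were higher, and the medians were 0.60, 0.94, 1.21 and 0.56. The counts depended on the scaling: with quantile normalization 17 members were higher and 1 lower at a median of 0.11, and with centred arrays 51 were higher and 0 lower at a median of 1.14. With quantile normalization the medians of complexes I, II and III were 0.11, 0.39 and 0.66, and that of complex V turned to -0.01. Without the arrays of high ALB 34 were higher and 1 lower, and without those of low 5′ signal, which affect only the spread here, 41 and 2. The comparison shares its arrays with those of the single steps.

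**Figure D4:**
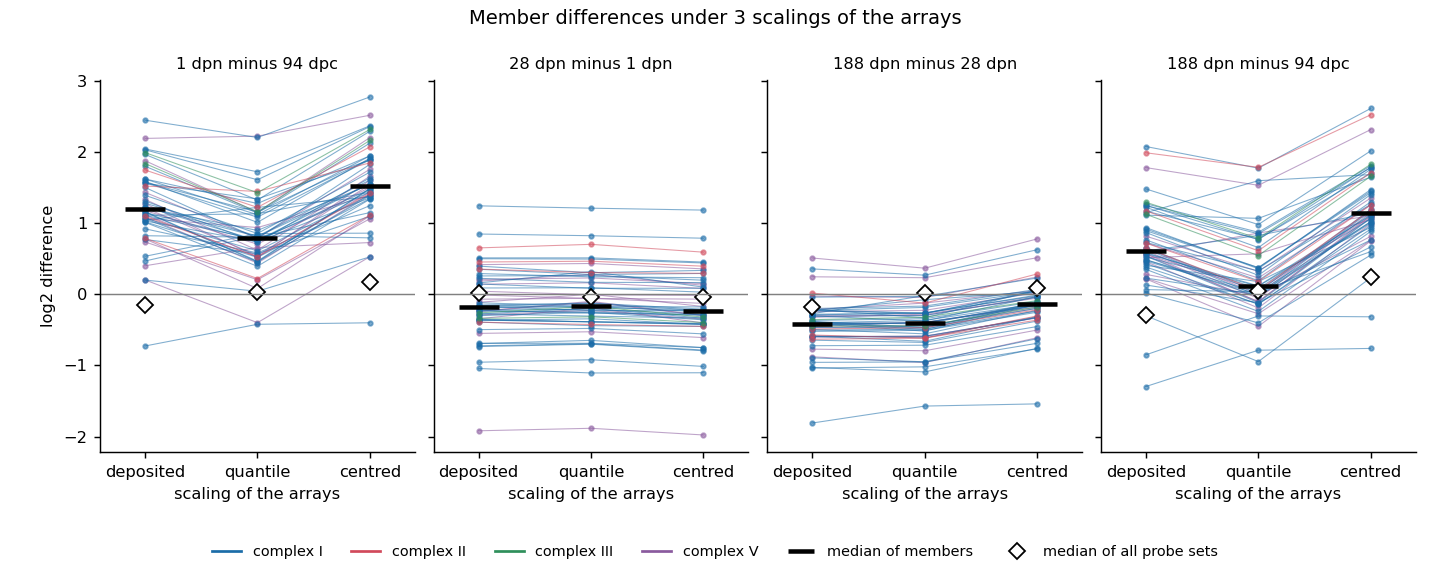
Log2 difference of each member (lines, coloured by complex; y axis) under 3 scalings of the arrays (x axis) in the 4 comparisons, with the median of the members (bar) and of all 23935 tested probe sets (diamond). At 188 dpn minus 94 dpc the members' median is 0.61 as deposited, 0.11 with quantile normalization and 1.14 with centred arrays, while that of all probe sets is -0.29, 0.05 and 0.25.

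The 16 members that were higher at 188 dpn than at 94 dpc under all 3 scalings came from all 4 complexes. They included NDUFC1, at 2698 [1921 to 3009] and 10796 [8844 to 12674] (2.07 ± 0.22, adjusted p = 7.19e-08), and NDUFB11, at 7353 [3713 to 7832] and 18698 [14131 to 20848] (1.48 ± 0.18, adjusted p = 5.76e-07), both of the membrane arm. NDUFV2, an iron-sulphur subunit of the N module, was at 5971 [4429.6 to 6698] and 13741 [12748 to 15215] (1.25 ± 0.14, adjusted p = 2.56e-07). In these 3 genes the lowest pig of 188 dpn lay above the highest fetus. SDHC had 1921 [1346 to 2215] and 7025 [6061 to 9332] (1.99 ± 0.18, adjusted p = 6.05e-09), and SDHB differed by 1.17 ± 0.23 (adjusted p = 0.000217). UQCRB and UQCR10 differed by 1.29 ± 0.16 and 1.12 ± 0.18 (adjusted p = 7.91e-07 and 3.01e-05). In complex V, ATP5J and ATP5S (0.57 ± 0.18, adjusted p = 0.0162) were in this set. NDUFV2, ATP5S, SDHB, NDUFS3 and ATP5J each have another probe set that was not called higher, as given with the probe sets. The remaining ones were NDUFA3, NDUFA4, NDUFA9, NDUFAF1, NDUFB1, NDUFS1 and NDUFS3, at 0.89 to 1.27.

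Both members that were lower at 188 dpn than in the fetus are of complex I and are dim. NDUFAF2 was at 214 [193 to 263] and 124 [101 to 145] (-0.85 ± 0.22, adjusted p = 0.00298). With quantile normalization it was not called (-0.31, adjusted p = 0.322). NDUFV3 was at least 2.03-fold lower than its fetal mean of 156 (adjusted p = 0.0461), and this call was kept in 8 of 24 fits that left out 1 animal. With quantile normalization the 1 member called lower was NDUFA11, at -0.95 (adjusted p = 0.000101), which as deposited stood at 10683 [6186 to 12183] and 8064 [6719 to 10030.2] (-0.30 ± 0.19, adjusted p = 0.216). As deposited, several genes that had risen at birth did not differ from the fetus by the test at 188 dpn, and their values moved with the scaling. NDUFA7 was at 5267 [3314 to 6104] and 4849 [4427 to 6073] (0.01 ± 0.18, adjusted p = 0.962), NDUFA10 differed by 0.13 ± 0.20, NDUFV1 by 0.23 ± 0.20 and ATP5G3 by 0.22 ± 0.15 (adjusted p = 0.661, 0.413 and 0.265). With quantile normalization NDUFA7, NDUFA10, NDUFV1 and ATP5G3 were at -0.40, -0.12, -0.01 and -0.28, and with centred arrays at 0.55, 0.66, 0.76 and 0.76. As deposited these genes stood in overlapping ranges, and a difference that misses the threshold does not show equal levels.

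Over all 4 stages 52 of 56 members differed by the F test, against 65.1% of all genes, and the 4 others were ATP5G2, ATP5I, NDUFAF3 and NDUFS6. The lowest mean was that of 94 dpc in 53 members and that of 188 dpn in NDUFA11, NDUFAF2 and NDUFV3. Reading the 3 steps in order, 23 members rose at birth and were not called afterwards, 18 rose at birth and fell after 28 dpn, and 5 rose at birth and fell by 28 dpn. NDUFB8 and NDUFC2 rose and then fell at both later steps. NDUFAF1, NDUFAF2, NDUFV3, ATP5J and SDHB each followed a course of their own, and ATP5G2, ATP5S and NDUFS6 were called at no step.

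The newborn arrays did not form 1 group. In 17 members animals 1, 2 and 3, which have low EF1A 5′ signal, lay below animals 4, 5 and 6, and in 8 they lay above, against 12.4% and 11.0% of all genes. The remaining 31 overlapped. In complex II, SDHB was 10381 to 14956 against 22750 to 30685, SDHC was 4047 to 4274 against 5094 to 8009 and SDHD was 9607 to 12508 against 15816 to 23906, while SDHA was higher, at 23932 to 26657 against 20154 to 23262. By their brightest probe sets, all 4 subunits of 1 enzyme were thus apart in these arrays, and not in 1 direction. The second probe set of SDHA was lower in animals 1 to 3, at 1080 to 1232 against 3398 to 4387. That of SDHB overlapped, at 192 to 387 against 136 to 430. In complex I, NDUFS6 was 1226 to 1868 against 5949 to 6365, NDUFAF3 was 1764 to 1822 against 4719 to 6581 and NDUFB7 was 5842 to 6656 against 11680.1 to 19037. NDUFA1, NDUFB4 and NDUFB2 were higher, NDUFB4 at 30919.9 to 36083 against 17074 to 24713. In complex V, ATP5I was 15315 to 22451 against 849 to 3812, the widest gap among the members, and in complex III UQCR10 was 34580.1 to 42349.8 against 25281 to 27275. The part of RNA quality in these gaps was not tested.

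Leaving out the 3 newborns of low 5′ signal kept the rise at birth and changed single calls. The counts from 94 dpc to 1 dpn were then 51 higher and 0 lower at a median of 1.35. ATP5G2 and NDUFS6 passed, NDUFS6 at 1.22 (adjusted p = 0.000439), and ATP5I did not, at 0.61 (adjusted p = 0.671). From 1 dpn to 28 dpn the calls of SDHB, NDUFAF2, NDUFB8 and NDUFC1 were lost, NDUFAF2 at -0.62 (adjusted p = 0.0754), NDUFB8 at -0.45 (adjusted p = 0.0775) and NDUFC1 at -0.40 (adjusted p = 0.326). In their place NDUFA11, NDUFAF3, NDUFB7 and NDUFB9 passed as lower and ATP5S as higher, NDUFAF3 at -1.15 (adjusted p = 0.00216). Among the fetuses, animal 5 was the lowest of its 6 in 49 of 56 members and the highest in 0, against 27.0% and 25.8% of all genes. The median log2 difference of this animal from the other 5 was -0.61 over the members and 0.01 over all genes.

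For 13 members more than 1 probe set carried the symbol, and for some these did not move alike. The brighter probe set of SDHA rose at birth as given above, whereas the other was at -0.11 ± 0.33 (adjusted p = 0.847) and rose by 1.41 ± 0.33 between 1 dpn and 28 dpn (adjusted p = 0.00376). At 1 dpn this second set read 1080 to 1232 in the animals of low 5′ signal and 3398 to 4387 in the others. NDUFA1, a membrane arm subunit, had a second probe set that rose by 2.13 ± 0.61 at birth and then fell by 3.09 and by 1.81, ending at -2.76 ± 0.61 against the fetus (adjusted p = 0.000762), whereas its brightest set ended at 0.58 ± 0.17 (adjusted p = 0.00935). At 1 dpn the second set of NDUFA1 read 11909 to 12845 in the animals of low 5′ signal and 634 to 5140 in the others. A second set of NDUFV2 fell by 1.09 ± 0.27 between 1 dpn and 28 dpn and was called lower again at the next step (adjusted p = 0.00631 and 0.00824), where the brightest was at 0.39 ± 0.14 and -0.37 ± 0.14 and passed at neither. One further set of NDUFS3 rose by 1.59 ± 0.29 between 1 dpn and 28 dpn (adjusted p = 0.000438), where the brightest was at 0.22 ± 0.20. The second set of SDHB was at -0.46 ± 0.38 at birth (adjusted p = 0.402). The 2 further sets of ATP5L were at 0.52 and 0.19 between 1 dpn and 28 dpn (adjusted p = 0.121 and 0.647), where the brightest fell. Between 94 dpc and 188 dpn a second set of ATP5S was at -0.18 ± 0.23 (adjusted p = 0.583) and the second set of NDUFV2 at -0.06 ± 0.27 (adjusted p = 0.89), where the brightest sets were higher. Over the same span the second set of SDHB was at -0.27 ± 0.38 and a further set of NDUFS3 at 0.65 ± 0.29 (adjusted p = 0.631 and 0.0791). The second set of ATP5J, with means under background at every stage, was at 0.93 ± 1.055 (adjusted p = 0.531). The values of these genes at these steps are those of the probe set that stands for the gene and not of each set.

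Genes of complex IV and of the electron carriers also rose at birth. Of complex IV, which reduces oxygen, 6 of 16 listed subunits were measured, and 5 of these rose and 0 fell at 1 dpn, with a median of 1.39, and the muscle form COX7A1 rose by 2.13 ± 0.21 (adjusted p = 1.98e-07). By 28 dpn 4 of the 6 fell (2 with quantile normalization), and from there to 188 dpn 2 fell (3 with quantile normalization, 1 with centred arrays). At 188 dpn 4 were higher and 2 lower than in the fetus, at a median of 0.61, but with quantile normalization 2 were higher and 2 lower, at a median of 0.02. As deposited COX7A1 was at 1.54 ± 0.21, and COX6A1, the non-muscle form of its subunit, at -1.49 ± 0.23 (adjusted p = 3.88e-06 and 1.42e-05). Of 15 listed electron carriers and ubiquinone synthesis genes 8 were measured, and all 8 rose at birth, among them CYCS, cytochrome c, at 1.88 ± 0.25 (adjusted p = 5.27e-06). Of these 8, 1 rose by 28 dpn, 3 fell by 188 dpn and 7 were higher at 188 dpn than in the fetus (4 with quantile normalization). Of 10 measured assembly factors and inhibitors outside the members, from a list of 20, 6 rose and 0 fell at birth, 2 rose and 3 fell by 28 dpn, and 2 fell by 188 dpn. BCS1L, which inserts the iron-sulphur protein into complex III, rose by 1.77 ± 0.17 and then fell by 0.94 ± 0.17 (adjusted p = 9.91e-08 and 0.000432). TMEM126B, an assembly factor of the membrane arm, was at -0.13 ± 0.17 at birth and rose by 1.45 ± 0.17 by 28 dpn (adjusted p = 0.606 and 2.80e-06).

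Carriers of ATP, ADP and phosphate did not all move one way: of 4 measured, 2 rose at birth, 2 fell at each later step, and at 188 dpn 2 were higher and 2 lower than in the fetus. SLC25A4, the muscle and heart form of the adenine nucleotide carrier, rose by 1.52 ± 0.14 at birth and was 0.85 ± 0.14 above the fetus at 188 dpn (adjusted p = 4.83e-08 and 2.82e-05). SLC25A6, another form, was at -0.36 ± 0.18 at birth (adjusted p = 0.13), fell at both later steps and was at -2.61 ± 0.18 against the fetus at 188 dpn (adjusted p = 1.23e-10). Of 10 measured genes, from a list of 12, taken as signs of mitochondrial mass 9 rose and 0 fell at birth, among them the citrate synthase gene CS at 1.52 ± 0.15 (adjusted p = 9.27e-08). By 28 dpn 1 of these rose and 4 fell, and at 188 dpn 6 were higher than in the fetus and 0 lower, whereas with quantile normalization 6 rose at birth and at 188 dpn 4 were higher and 1 lower. Of 5 measured regulators of mitochondrial genes, from a list of 14, 0 rose and 0 fell at birth by limma, and 0 of them had an unadjusted p under 0.05. With quantile normalization 1 was called higher at this step, and with centred arrays 1. Among the listed regulators that were not measured were NRF1, GABPA, ESRRA and PPARGC1B. PPARGC1A, a coactivator of such genes, was at -0.47 ± 0.39 and TFAM, which packs mitochondrial DNA, at -0.15 ± 0.25 (adjusted p = 0.403 and 0.704). PPRC1, a related coactivator, was called lower at both later steps, by 0.68 and 1.03 (adjusted p = 0.00409 and 0.000128).

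Markers of fibre type and of vessels also differed between the stages. All 7 slow fibre markers were higher at 188 dpn than at 94 dpc, 6 of them already at 1 dpn, and their summed signal ranged over 114133 to 155395 in the fetuses, 196450 to 325904 in the newborns, 272154 to 358829 in the pigs of 28 dpn and 211233 to 317341 in those of 188 dpn. With quantile normalization 3 of the 7 slow fibre markers rose at birth, at a median of 0.12 against 0.74 as deposited, and 5 were higher at 188 dpn. Of 6 fast fibre markers 4 rose at birth (1 with quantile normalization), and their sum went from 108702 to 179159 at 94 dpc to 205399 to 267823 at 1 dpn. At 28 dpn this sum ranged over 301160 to 401719, and at 188 dpn over 258369 to 363148. All 6 fast fibre markers and all 8 skeletal muscle markers were higher at 188 dpn than at 94 dpc as well (3 of each list with quantile normalization). Of 5 endothelial markers 3 fell at birth, and their sum ranged over 5937 to 10908 in the fetuses, 3414 to 5779 in the newborns, 5479 to 8415 in the pigs of 28 dpn and 2252 to 3139 in those of 188 dpn. At 188 dpn 4 of the 5 were called lower than in the fetus and 1 higher. The higher one was VWF, at 321 to 486 in the fetuses and 545 to 834.5 at 188 dpn. Of 4 measured adipocyte markers 2 rose between 1 dpn and 28 dpn and 2 fell between 28 dpn and 188 dpn, at a median of -0.82 (2 fell with quantile normalization and 0 with centred arrays). Their sum was 5697 [5098 to 7397] at 94 dpc, 9384 [6939 to 25647] at 1 dpn, 9140.3 [5996 to 11512] at 28 dpn and 4397 [3041 to 5442] at 188 dpn, all 6 arrays of 188 dpn lying below those of 28 dpn. This sum rests mainly on FABP4 and LPL. At 188 dpn FABP4 read 1998 to 3910 and LPL 765 to 1526, whereas ADIPOQ read 45.6 to 239 and LEP 103 to 182. No marker of these lists was at 0 in any array, but some read under the background of 74.7. The lowest signals were 6.32 for KDR and 17.5 for TIE1 at 188 dpn, and 12.9 for ADIPOQ at 1 dpn. From 28 dpn to 188 dpn 0 of the 8 skeletal muscle, 7 slow fibre and 6 fast fibre markers were called by limma, and 0 had an unadjusted p under 0.05, while 21 of the 56 members fell. The part of fibre and fat makeup in the members' changes was not tested.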

How the data were processed

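RNA of 24 samples, 6 animals at each of 4 stages, was hybridised to 1 Affymetrix porcine array per animal. The authors deposited 1 signal intensity per probe set and array on a linear scale, made with GCOS 1.1.1, per the submitters' processing notes; the scaling is not given in the sources used here, and each array's mean without its outer 2% at each end was 498 to 499. Of 24118 probe sets, 183 control sets were left out and 23935 were tested. GEO's platform annotation gave 10069 of these 1 gene symbol, 198 several and 13668 none, and 3 probe sets with a matching symbol among several were left out. The 56 members were matched by gene number to the RefSeq gene table.

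Signals were taken to log2 without a constant or a filter, and stage means were fitted over all 24 arrays with limma 3.58.1 in R 4.3.3 (lmFit and eBayes, 20 residual degrees of freedom, two-sided). P-values were adjusted by Benjamini-Hochberg over all 23935 probe sets, at a threshold of 0.05. The steps share stages, so their values are set side by side and not correlated. Ranges are over 6 animals. The number of arrays limits the precision. Code was tested on simulated data.

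Every member could be named. Those described with values are the largest rises and falls past the threshold of each complex and comparison, the brightest and dimmest of each complex, members that moved against their complex, isoform sets and genes whose probe sets disagreed. The members, the lists and the tests were chosen with earlier results of these data known. The alternatives were quantile normalization, centred arrays, 16 or 64 added before log2, the dimmest 30% left out, trend and robust eBayes, only the 2 stages compared, all probe sets of a gene averaged, a threshold of 0.01, and fits without the arrays of EF1A 5′ to 3′ ratio under 0.3, without the arrays of ALB over 10 times its median of 388, and without each animal in turn. Sequences of the members are not shown. Figures were drawn with Python 3.11.15 and matplotlib 3.10.9.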

Additional observations from a re-analysis of the deposited data

Results flagged for a closer look

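In 37 of 224 groups of 6 signals, 1 group for each member and stage, 1 animal stood far from the other 5 by Dixon's test. Chance alone gives about 1 in 20 such groups, and the members share arrays, so these groups are not independent. In 28 members the outlying animal was animal 5 of 94 dpc, and in each it was the lowest. Among the NDUFA genes of complex I these were NDUFA1 at 5147 (next 6698), NDUFA10 at 1816 (next 3094), NDUFA11 at 6186 (next 10143), NDUFA12 at 4796 (next 6822), NDUFA2 at 3807 (next 5568), NDUFA4 at 12033 (next 17416) and NDUFA8 at 5268 (next 8247), where the next lowest fetus is given in brackets. Among the membrane arm genes named NDUFB and NDUFC they were NDUFB1 at 4922 (next 7929.7), NDUFB11 at 3713 (next 6027), NDUFB2 at 5709 (next 7837), NDUFB7 at 2447 (next 4231), NDUFB8 at 5995 (next 8612) and NDUFC2 at 3812 (next 4834). Among the NDUFS and NDUFV genes they were NDUFS5 at 5189 (next 7738), NDUFS6 at 1667 (next 2644), NDUFS7 at 3561 (next 6579), NDUFV1 at 1756 (next 2657) and NDUFV2 at 4429.6 (next 5866). In complex II it was SDHA at 4479 (next 6603), and in complex III they were UQCR10 at 5251 (next 8361) and UQCRB at 5269 (next 6662). In complex V they were ATP5A1 at 15090.5 (next 20549), ATP5B at 13940.1 (next 20008), ATP5D at 3737 (next 6662), ATP5E at 20115 (next 27928), ATP5F1 at 9172 (next 10955), ATP5G1 at 8232 (next 12744) and ATP5L at 9055 (next 13412). The genes thus come from all 4 complexes, and the stage means of 94 dpc include this animal. The same animal had the highest leukocyte marker sum and the lowest skeletal muscle marker sum of its stage, and their part in its member signals was not tested.

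At 188 dpn animal 1, one of the animals of high ALB, was the lowest in ATP5D at 7102 (next 9528), NDUFA10 at 2210.5 (next 3241), NDUFAF3 at 1469 (next 1793) and NDUFB1 at 14009 (next 17775). Animal 6 of the same stage was the lowest in NDUFV3 at 26.0 (next 68.1), both under the background level of 74.7. At 28 dpn animal 6 was the lowest in NDUFB8 at 17962 (next 21853) and NDUFS5 at 10697 (next 12014). Animal 5 of 1 dpn was the highest in NDUFS1 at 5656 (next 3276), and animal 1 of 94 dpc was the highest in ATP5I at 6324 (next 1377).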

How the results depend on the processing

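The members' rise at birth kept its direction under every alternative run, and its count of higher genes stayed within 47 to 53. Its median was 0.79 with quantile normalization and 1.52 with centred arrays. From 1 dpn to 28 dpn the 2 higher members became 4 with quantile normalization, 5 with 64 added, with the dimmest probe sets left out, with trend and robust eBayes and with a gene's probe sets averaged, and 1 with centred arrays, with only the 2 stages compared, at a threshold of 0.01 and without the arrays of high ALB. From 28 dpn to 188 dpn the 21 lower members became 4 with centred arrays, at a median of -0.15, 7 at 0.01 and 3 without the arrays of high ALB. Other settings gave more lower members: 25 with 64 added, 26 with the dimmest probe sets left out and 27 with a gene's probe sets averaged. With trend and robust eBayes there were 28, and with only the 2 stages compared 29. The 1 higher member became 0 with quantile normalization, with a gene's probe sets averaged, at 0.01 and without the arrays of high ALB. From 94 dpc to 188 dpn the 40 higher members became 17 with quantile normalization, at a median of 0.11, against a median of 1.14 with centred arrays, and the 2 lower became 1 with quantile normalization, at 0.01 and without the arrays of high ALB, and 0 with centred arrays. Leaving out the arrays takes samples from the fit, and the cause of the other changes was not tested.

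With quantile normalization 10 genes that were higher at 188 dpn than at 94 dpc as deposited turned below 0: ATP5F1 -0.10, ATP5G1 -0.002, ATP5H -0.11, ATP5L -0.19, ATP5O -0.06, NDUFA12 -0.029, NDUFA2 -0.001, NDUFAB1 -0.024, NDUFB4 -0.12 and NDUFS5 -0.14. With a gene's probe sets averaged ATP5L turned to 0.053 from 1 dpn to 28 dpn and NDUFA1 to -1.09 from 94 dpc to 188 dpn. Of 124 calls of members, 89 held with quantile normalization, 104 with centred arrays, 95 without the arrays of high ALB and 119 without those of low 5′ signal.

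With each animal left out in turn the counts were 48 to 51 higher and 0 to 1 lower at birth (1 without 1 dpn animal 4), at medians of 1.11 to 1.24. For 1 dpn to 28 dpn they were 1 to 6 higher (6 without 1 dpn animal 5, and 1 in 14 of the fits) and 7 to 10 lower, at -0.22 to -0.15. For 28 dpn to 188 dpn they were 0 to 1 higher (0 without 28 dpn animal 2) and 12 to 24 lower (12 without 28 dpn animal 3, and 13 without 188 dpn animal 1 or 2), at -0.45 to -0.35. For 94 dpc to 188 dpn they were 36 to 41 higher and 1 to 3 lower (1 in 16 of the fits, 3 without 94 dpc animal 5), at 0.53 to 0.65. The F test called 52 to 53. No paired analysis was possible because the replicate numbers follow the order of accession and pair no animals across stages.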

Other observations

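Within stages the members tended to be high or low in the same animals. Over 1540 pairs of members the median correlation of their deviations from the stage means was 0.39 across 24 arrays, and 79.2% of the pairs were above 0. The pairs share arrays, scaling and labelling, so this is a description of these arrays.

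In every complex the arrays of a stage were spread least at 28 dpn. The SD of the log2 median at that stage was 0.10 in complex I and 0.07 in complex V, against 0.19 to 0.27 and 0.13 to 0.25 at the other stages (n = 6 each). For complex II it was 0.26 at 94 dpc, 0.48 at 1 dpn, 0.10 at 28 dpn and 0.21 at 188 dpn, and for complex III it was 0.34 at 1 dpn and 0.07 at 28 dpn. At 1 dpn the spread of complex II went with the arrays of low EF1A 5′ signal. By the brightest probe sets SDHB, SDHC and SDHD were low in these arrays and SDHA was high, whereas the second probe set of SDHA was low.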
